A study of Mus musculus with 34 samples.

Results

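The 10 genes described here carry BMP and TGF-β signals from the cell surface to the nucleus: the receptor genes Bmpr1a, Tgfbr1 and Tgfbr2, the receptor-regulated Smad1, Smad2 and Smad3, the common partner Smad4, the inhibitory Smad6 and Smad7, and the BMP target Id1. They were chosen by name, and each was given the mean H3K4me3 signal within 1000 bp of its 5′ end in GENCODE M21 on mm10, which made them 10 of the 21938 protein-coding genes measured. The data came from CUT&RUN, in which an antibody brings micrococcal nuclease to a histone mark and the released fragments are sequenced. The cells were scraped from the villi of normal-appearing small intestine of C57BL/6J mice, with 2 wild-type and 2 ApcMin/+ libraries, and the labels give an age of 5 weeks where the study's methods give another. ApcMin/+ mice carry 1 mutant allele of the tumour suppressor Apc in every cell of the body, so the mutation is not limited to the epithelium. Neither group carried any other allele or treatment in the labels.

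In this pathway a ligand of the BMP or TGF-β family brings type I and type II receptors together, the type II receptor phosphorylates the type I receptor, and the type I receptor phosphorylates receptor-regulated Smads. These bind Smad4, enter the nucleus and act on target genes, among them Id1 and the genes of the inhibitory Smads, which feed back on the receptors. In the intestine BMP signalling is strongest towards the villus and opposes the proliferation of crypts, and SMAD4 and BMPR1A are mutated in juvenile polyposis. H3K4me3, trimethylation of lysine 4 of histone H3, is found around the starts of transcribed genes and of many CpG-rich genes that are transcribed little, and its level is not a level of RNA.

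The values are coverage per base scaled to 10000000 tags per library, called signal below, and a tag is a sequenced fragment. The wild-type libraries held 1430000 tags (replicate 1) and 4790000 tags (replicate 2), and the ApcMin/+ libraries held 3700000 and 5470000 in the same order. ApcMin/+ replicate 1 stood apart from the other 3 libraries: 43.3% of its signal lay in enriched regions against 11.9% to 22.6%, and it had the highest value at 98.6% of the 9931 tested promoters, those whose mean signal reached 2. The median of these promoters was 13.2 in that library and 3.06 to 4.53 in the others, while the signal far from promoters and outside enriched regions was 0.190 against 0.268 to 0.314. The differences between ApcMin/+ and wild type are therefore given also relative to the median promoter of each library. Nothing in the labels said whether the libraries were made together, and assay efficiency and genotype cannot be told apart in these files. Of the marker lists, 10 of 12 enterocyte genes reached a mean signal of 2, with a summed signal of 69.1 and 40.4 in wild type and 190 and 53.1 in ApcMin/+, whereas 0 of 12 mesenchymal, 0 of 5 endothelial and 0 of 9 immune genes did. Their sums ranged from 6.01 to 9.19 for mesenchyme, from 1.72 to 3.64 for endothelium and from 5.42 to 12.3 for immune cells. A list of 8 genes taken as silent averaged 0.772 and 0.556 a gene in wild type and 0.279 and 0.643 in ApcMin/+. In the same order the immune list averaged 0.673, 0.602, 1.36 and 1.03, and the mesenchymal list 0.581, 0.501, 0.645 and 0.766. The endothelial list averaged 0.344, 0.702, 0.727 and 0.666. A mean below 2 does not therefore show that a list lacks the mark. Of the other epithelial lists, 0 of 6 secretory genes and 3 of 6 crypt genes (Axin2, Mki67 and Smoc2) reached it, while the stem cell genes Lgr5, Olfm4 and Ascl2 did not. The summed signal of the crypt list was 12.1 and 8.50 in wild type and 31.0 and 14.6 in ApcMin/+. Its groups were apart with ApcMin/+ higher at 2 of the 3 tested genes, beside 38.5% of all tested promoters. The median log2 difference of the 3 was 0.78, beside 0.85 for all tested promoters. Without ApcMin/+ replicate 1 it was 0.52, beside 0.13, and relative to the median promoter it was -0.08. The part of any of these cells in the values of the 10 genes was not tested.

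All 10 genes had signal above background, at 3.90 times (Bmpr1a in wild-type replicate 1) to 158 times (Id1 in ApcMin/+ replicate 1) the background of their library. The lowest of these values does not show a mark by itself. Bmpr1a in wild-type replicate 1 had 1.05 on 3 fragments, at the 42.7th percentile of all protein-coding promoters, whose median there was 1.39. Their promoters lay between the 56.5th percentile (Bmpr1a) and the 96.4th percentile (Id1) of all protein-coding promoters by mean signal, and the median of the 10 was at the 77.0th to 79.1st percentile in each of the 4 libraries. In the order of their mean signal they were Id1, Smad3, Smad6, Tgfbr2, Smad7, Smad4, Tgfbr1, Smad1, Smad2 and Bmpr1a. Only 2 pairs of neighbours in this order differed by more than the spread over the libraries: Smad7 was above Smad4 by 0.32 ± 0.13 (SD, n = 4) on the log2(signal + 1) scale, in 4 of 4 libraries, and Smad4 was above Tgfbr1 by 0.43 ± 0.38, in 3 of 4. Id1 was above Smad3 in 3 of 4 libraries, by 0.30 ± 0.49, which was within the spread.

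**Figure D1:**
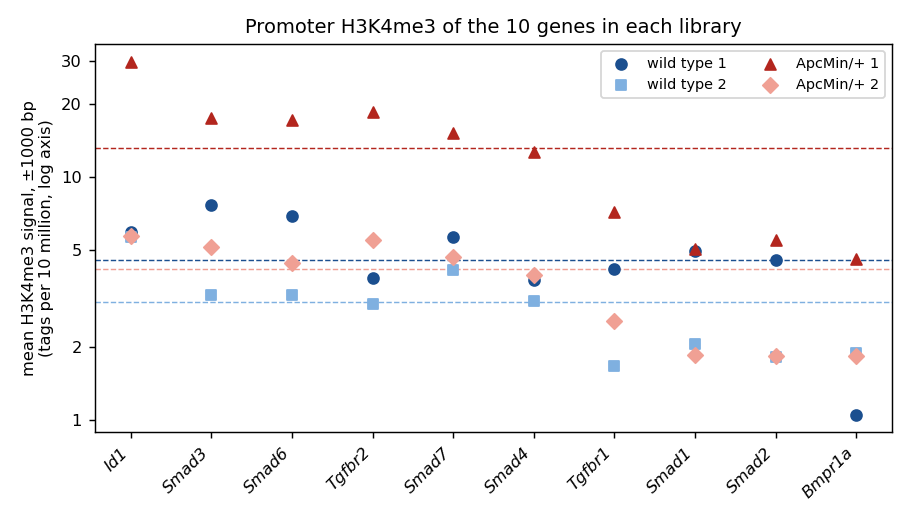
Mean H3K4me3 signal within 1000 bp of the 5′ end (log axis) of each gene in each library. Points are single libraries and dashed lines are the medians of the 9931 tested promoters in the library of the same colour. The red triangles of ApcMin/+ replicate 1 are the highest at all 10 genes, while ApcMin/+ replicate 2 lies between or beside the wild-type libraries at most of them.

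At the receptors, the signal of Tgfbr2, the type II receptor for TGF-β, reached 3.84 and 2.99 in wild type and 18.5 and 5.48 in ApcMin/+. Both ApcMin/+ values were above both wild-type values, and the log2 difference was 1.36 (SE 1.08, limma, adjusted p = 0.683). Tgfbr1, the type I receptor that Tgfbr2 activates, had 4.19 and 1.67 in wild type and 7.18 and 2.55 in ApcMin/+, so its groups overlapped (log2 difference 0.54, SE 0.81). Bmpr1a, a type I receptor for BMPs, had the lowest mean of the 10, with 1.05 and 1.88 in wild type and 4.60 and 1.83 in ApcMin/+, and rested on 3 fragments in wild-type replicate 1.

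Among the receptor-regulated Smads, Smad3, which carries TGF-β signals, had 7.67 and 3.26 in wild type and 17.5 and 5.14 in ApcMin/+. Smad2, which serves the same branch, had 4.53 and 1.81 in wild type and 5.52 and 1.83 in ApcMin/+, which was 0.315 to 0.591 times the signal of Smad3. Smad1, of the BMP branch, had 4.94 and 2.04 in wild type and 5.07 and 1.85 in ApcMin/+, and was the only one of the 10 whose mean was not higher in ApcMin/+ (log2 difference -0.03, SE 0.77, limma, adjusted p = 0.968). Smad4, which both branches share, had 3.75 and 3.08 in wild type and 12.7 and 3.94 in ApcMin/+. Its groups did not overlap, but only narrowly, since 3.94 stood against 3.75, and the 3.75 rested on 11 fragments.

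At both inhibitory Smads the groups overlapped. Smad6, which acts mainly on BMP receptors, had 6.94 and 3.25 in wild type and 17.3 and 4.43 in ApcMin/+. Smad7, which acts on receptors of both the BMP and the TGF-β branch, had 5.66 and 4.13 against 15.2 and 4.69. Id1, a helix-loop-helix protein that blocks differentiation factors, had 5.93 and 5.64 in wild type and 29.9 and 5.73 in ApcMin/+, so that 3 of its 4 values were almost equal. The ratio of ApcMin/+ replicate 1 to replicate 2 was 5.22 at Id1, against a median of 3.16 over the tested promoters.

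No gene of the 10 passed the threshold, and neither did any promoter. In limma with a trend on log2(signal + 1), 0 of 9931 promoters had an adjusted p under 0.05, which is 0% of those tested, and 131 promoters but none of the 10 had an unadjusted p under 0.05. The log2 differences of the 10 ranged from -0.03 (Smad1) to 1.36 (Tgfbr2) with a median of 0.75, beside 0.85 for all tested promoters. The groups did not overlap, with ApcMin/+ higher, at 2 of the 10 (Tgfbr2 and, narrowly, Smad4), beside 38.5% of all tested promoters. They did not overlap with ApcMin/+ lower at 0 of the 10, beside 0.161%. With 2 libraries a group an exact permutation test cannot give a p below 0.333. Without ApcMin/+ replicate 1 the median difference of the 10 was -0.02, beside 0.13 for all tested promoters. Without ApcMin/+ replicate 2, which leaves replicate 1 alone, the median difference of the 10 was 1.54, beside 1.58.

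Relative to the median promoter of each library, 3 genes separated downwards and 1 upwards. Smad1 was at 0.10 and -0.42 in wild type and at -1.23 and -0.86 in ApcMin/+ on the log2(signal + 1) scale, a difference of -0.89 (SE 0.39, limma, adjusted p = 0.9996). Smad2 followed it closely, at 0.00 and -0.53 in wild type and -1.12 and -0.87 in ApcMin/+, a difference of -0.73 (SE 0.40). Smad7 also separated, but narrowly, from 0.27 and 0.34 to 0.19 and 0.14, a difference of -0.14 (SE 0.28). Its 0.27, in wild-type replicate 1, rested on 16 fragments. Tgfbr2 was the one that separated upwards, from -0.19 and -0.03 to 0.46 and 0.32, a difference of 0.50 (SE 0.29). The groups of the other 6 overlapped on this scale, with differences of 0.24 at Id1, 0.047 at Smad4, -0.042 at Smad3, -0.077 at Smad6, -0.14 at Bmpr1a and -0.32 at Tgfbr1. After this centring 12 promoters (0.121%) passed the threshold, none of them among the 10, and 294 promoters, with Smad1 alone of the 10, had an unadjusted p under 0.05. The groups were apart with ApcMin/+ higher at 13.1% and lower at 14.3% of all promoters, beside 1 and 3 of the 10. Smad1 and Smad2 rested on 13 to 20 fragments in 3 of the 4 libraries, and Tgfbr2 on 11 in wild-type replicate 1.

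**Figure D2:**
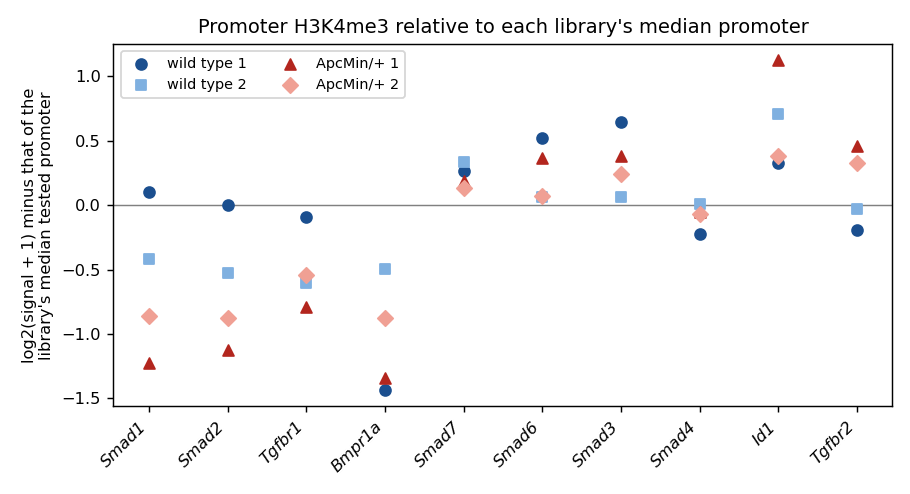
log2(signal + 1) of each gene minus that of the median tested promoter of the same library, ordered by the difference between the group means. Points are single libraries and the grey line is the median promoter. Smad1 and Smad2 lie lower in both ApcMin/+ libraries than in both wild-type libraries, and Tgfbr2 lies higher.

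The mark was broad at 4 of the genes. Enriched regions were called on the mean of the 4 libraries, and the longest region at the promoter was 11100 bp at Smad7, 7200 bp at Id1, 6600 bp at Smad3 and 6300 bp at Smad6, against a median of 2000 bp for the tested promoters. These lengths stood at the 99.8th, 99.1st, 98.5th and 98.2nd percentile of the tested promoters. Smad4 (3200 bp), Tgfbr2 (2700 bp), Smad1 (2100 bp), Tgfbr1 (1900 bp) and Smad2 (1500 bp) had regions of common length, and Bmpr1a (3900 bp) lay between. Since ApcMin/+ replicate 1 weighs most in that mean, breadth was measured in each library too, as the share of the signal within 5000 bp of the 5′ end that lay within 1000 bp. At Smad7 this share was 20.4% and 26.0% in wild type and 20.5% and 23.5% in ApcMin/+, beside medians of 62.5%, 55.2%, 75.5% and 57.4% over the tested promoters. The shares of Smad6 (27.8% to 43.0%), Id1 (29.3% to 40.4%) and Smad3 (33.5% to 47.8%) were below the median in every library, but so were those of Bmpr1a (17.8% to 26.6%), Smad1 (33.1% to 54.5%) and Smad4 (48.5% to 59.7%). A low share comes also from a mark that lies off the 5′ end, so it does not measure breadth alone. The shares of Tgfbr2 (66.9% to 77.6%) were above the median in every library.

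**Figure D3:**
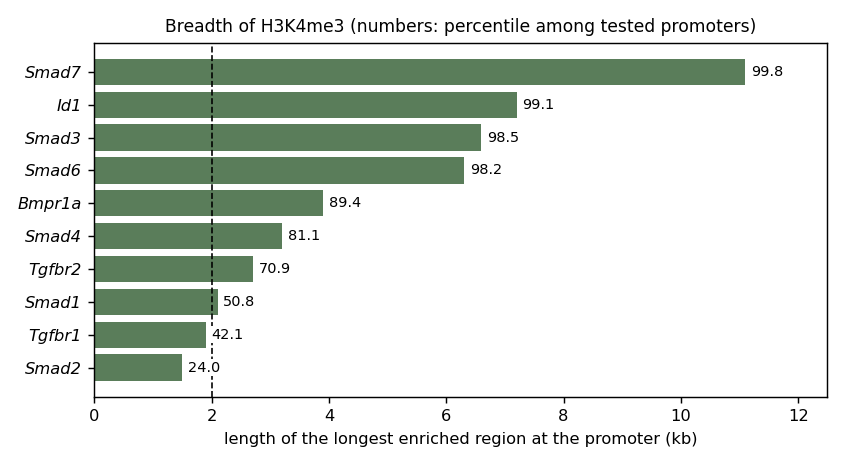
Length in kb of the longest enriched region that touches each promoter, called on the mean of the 4 libraries. The dashed line is the median of the tested promoters and the number beside each bar is the percentile among them. Smad7, Id1, Smad3 and Smad6 are above the 98th percentile.

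The position of the mark in relation to the annotated 5′ end also differed between the genes. At Smad2, 80.1% to 94.7% of the signal within 1000 bp lay upstream of the 5′ end. At Smad4 62.7% to 71.0% did, and at Smad7 54.1% to 85.2%. The median for the tested promoters was 31.8% (10.8% and 63.4% at the 10th and 90th percentile). Smad2 had a second region from 821 to 1220 bp downstream, with a signal of 12.7 in ApcMin/+ replicate 1 and 0.714 to 2.87 in the other libraries. At Smad7 the stretch between 2000 and 3000 bp downstream of the 5′ end had more signal in all 4 libraries than the 1000 bp on either side of that end, with a mean of 16.7 and 7.20 in wild type and 51.4 and 12.9 in ApcMin/+. An annotated protein-coding transcript of Smad7 starts there, 2447 bp downstream, and its window had 1.41 to 2.36 times the signal of the 5′ end in the 4 libraries. The 5′ end of Smad7 is also shared with a transcript on the opposite strand, Gm20544, which starts 441 bp away, and the tracks cannot divide the signal between the pair.

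**Figure D4:**
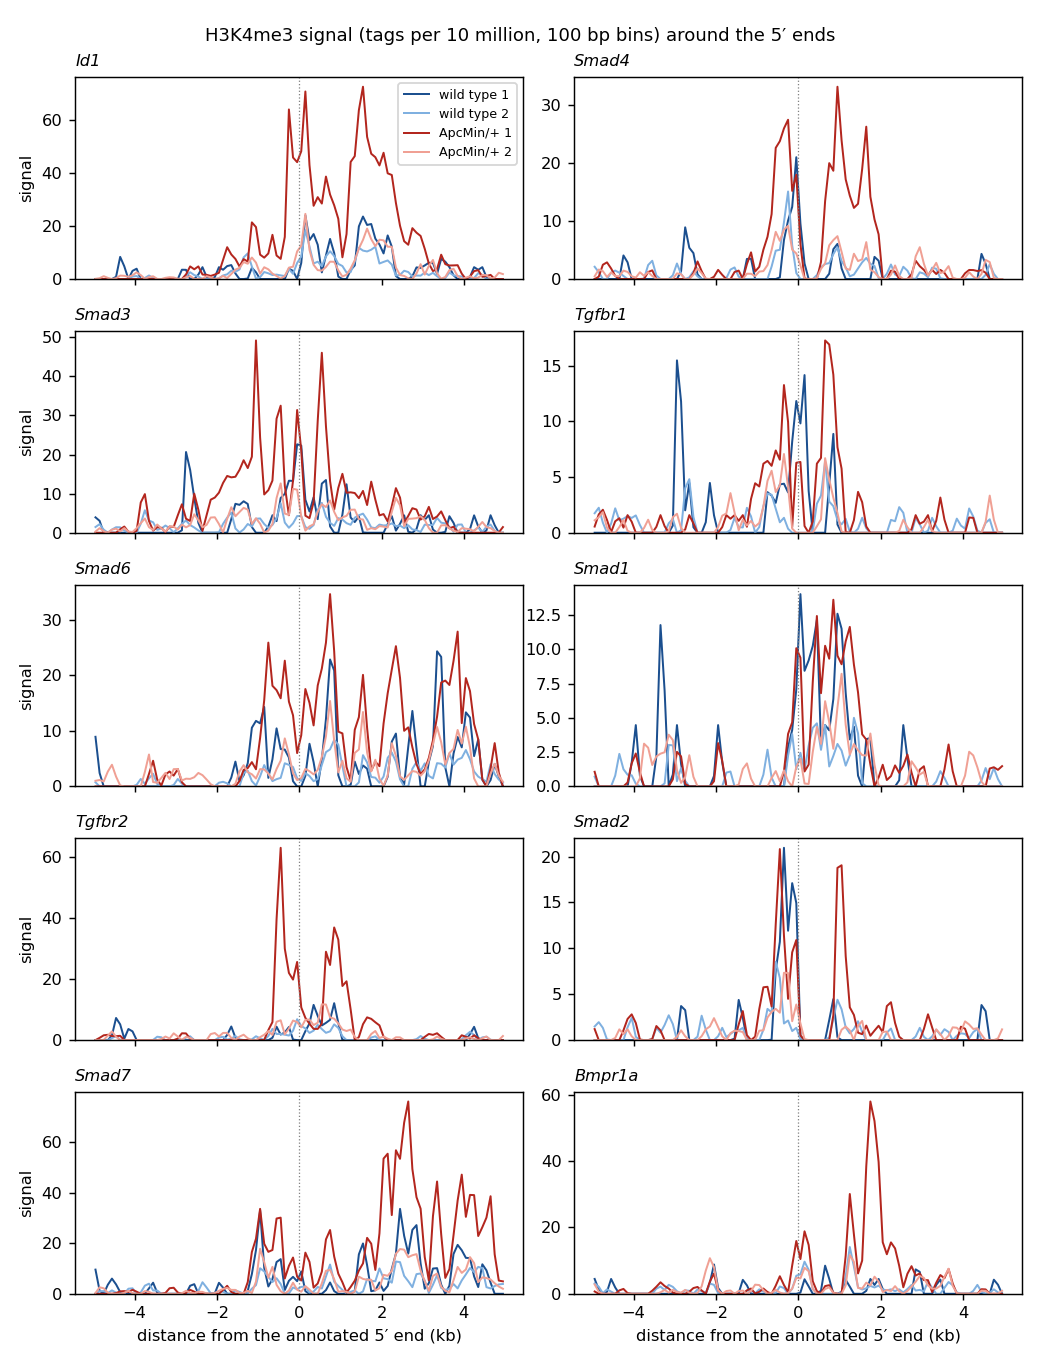
H3K4me3 signal in 100 bp bins within 5 kb of the annotated 5′ end (dotted line) of each gene, oriented in the direction of transcription, with 1 line a library and a vertical axis of its own for each gene. The mark of Smad7, Smad3 and Smad6 extends several kb downstream, as does that of Id1, past the end of that short gene. That of Tgfbr2 and Tgfbr1 ends within about 2 kb, apart from a peak of Tgfbr1 at -2910 bp in wild-type replicate 1, in a region with 5 fragments. That of Smad2 lies mostly before the 5′ end with a further peak after it in ApcMin/+ replicate 1, and that of Bmpr1a peaks after the 5′ end.

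At Bmpr1a the window held little of the mark. Its outermost 5′ end at chromosome 14, position 34503341, had the values given above, but a transcript that starts 813 bp downstream had 1.69 and 3.34 in wild type and 12.9 and 3.21 in ApcMin/+, 1.62 to 2.80 times as much. Over the 3900 bp region the libraries held 9, 46, 172 and 64 fragments in place of 3, 18, 34 and 20. The highest point of ApcMin/+ replicate 1, at a signal of 57.9, was 1750 bp downstream, whereas the other 3 libraries were at 8.94 to 14.6 at their highest points. The curated RefSeq start lies 795 bp downstream of that 5′ end, and the bases before it that overlap no exon are GC-rich, with 17 CpG in 109 bases and 84.4% G or C. They are printed from RefSeq (GRCm38.p6, chr14:34502688-34502796, minus strand) with the palindrome GGCGCC, a GC-rich element to which Smads can bind, in capitals. It occurs in 11.9% of 32851 RefSeq promoters of 300 bases.
Bmpr1a: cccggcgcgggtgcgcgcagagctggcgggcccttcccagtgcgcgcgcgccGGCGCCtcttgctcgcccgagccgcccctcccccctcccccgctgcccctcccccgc

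Counted in fragments, Smad1 carried its largest amount of H3K4me3 inside the gene. A region of 5200 bp, from 26218 to 31417 bp downstream of the 5′ end (chr8:79368101-79373300), had a mean signal of 4.29 and 3.42 in wild type and 16.0 and 5.80 in ApcMin/+, on 32, 85, 308 and 165 fragments. The region at the 5′ end held 19, 25, 58 and 34 fragments. The nearest transcript start in GENCODE M21 is 11423 bp from the inner region, but RefSeq has a predicted Smad1 transcript that starts in it, 26845 bp downstream of the 5′ end. Within 1000 bp of that start the signal was 5.92 and 3.22 in wild type and 18.5 and 5.39 in ApcMin/+, on 17, 31, 137 and 59 fragments. This was 1.20 and 1.58 times the signal at the 5′ end in wild type, and 3.64 and 2.92 times in ApcMin/+. The window at the 5′ end held 14, 20, 38 and 20 fragments. The ratio was formed within each library, so a factor common to all loci of that library cancels. A factor that differs between loci does not cancel. The share of signal in enriched regions differed between the libraries (22.6% and 11.9% in wild type, 43.3% and 16.4% in ApcMin/+). Whether assay efficiency shifts the ratio was not tested. The ratio was higher in both ApcMin/+ libraries, but it was chosen after its values were seen and was given no test.

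The sequences before the Smad1 starts are shown because they differ in base composition. The bases before the 5′ end that overlap no exon hold 14 CpG in 160 bases (58.1% G or C), whereas the 250 bases before the predicted inner start hold 4 (47.6% G or C). The first is from the RefSeq promoter of Smad1 (GRCm38.p6, chr8:79399519-79399678, minus strand) and the second is from the same assembly (chr8:79372674-79372923, minus strand). Neither holds GTCTAGAC, CAGAC or GGCGCC on either strand.
Smad1, 5′ end: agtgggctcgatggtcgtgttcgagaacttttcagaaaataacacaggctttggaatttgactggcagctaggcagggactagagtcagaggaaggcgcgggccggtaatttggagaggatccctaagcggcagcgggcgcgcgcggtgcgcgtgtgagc
Smad1, inner start: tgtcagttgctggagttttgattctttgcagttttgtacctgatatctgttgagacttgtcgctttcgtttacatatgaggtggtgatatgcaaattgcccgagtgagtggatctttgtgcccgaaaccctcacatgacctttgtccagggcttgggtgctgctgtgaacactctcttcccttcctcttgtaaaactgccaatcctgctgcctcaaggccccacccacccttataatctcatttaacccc

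**Figure D5:**
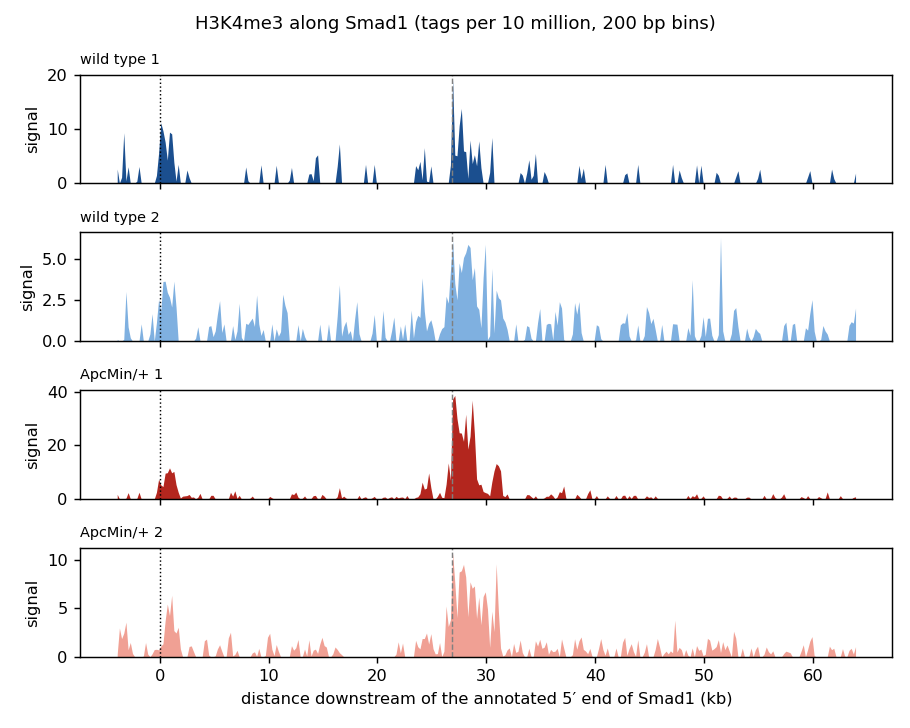
H3K4me3 signal in 200 bp bins along Smad1, from 4 kb upstream of the annotated 5′ end (dotted line), with 1 panel and 1 vertical axis a library. The dashed line is the predicted RefSeq start 26845 bp downstream. All 4 libraries have signal at both places, with more in total at the inner one.

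Sequences are shown for Smad6 and Tgfbr2 too, an inhibitory Smad with a broad mark and the gene with the largest log2 difference of the 10. The Smad6 promoter (GRCm38.p6, chr9:64022056-64022309, minus strand) holds the palindrome GTCTAGAC, in capitals, which joins a pair of the GTCT boxes that Smads bind and occurs in 0.213% of the 32851 RefSeq promoters. It runs over the transcript start, so that its last 4 bases are exon. It was the only one of 7 promoters of the genes in the RefSeq table to hold it.
Smad6: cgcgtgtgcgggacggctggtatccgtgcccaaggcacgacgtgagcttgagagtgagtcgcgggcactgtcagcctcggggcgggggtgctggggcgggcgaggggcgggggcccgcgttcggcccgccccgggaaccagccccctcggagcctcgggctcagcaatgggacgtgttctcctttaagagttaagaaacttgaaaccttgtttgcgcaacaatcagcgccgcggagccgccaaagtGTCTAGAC

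The Tgfbr2 promoter (GRCm38.p6, chr9:116175361-116175613, minus strand) holds the shorter box CAGAC once, in capitals, and has 13 CpG in 253 bases. This box, searched on both strands, occurs in 49.6% of RefSeq promoters. A match is a description of the letters and was not tested as a site of binding.
Tgfbr2: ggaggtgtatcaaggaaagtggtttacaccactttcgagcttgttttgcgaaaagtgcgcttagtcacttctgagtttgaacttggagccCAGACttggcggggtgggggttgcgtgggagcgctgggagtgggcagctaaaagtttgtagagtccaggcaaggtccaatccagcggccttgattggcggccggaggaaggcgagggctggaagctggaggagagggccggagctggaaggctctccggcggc

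The promoter windows of the 10 genes were rich in CpG. Over the 2000 bp around the 5′ end the observed number of CpG was at least 0.6 of that expected from the base composition at 9 of the 10, beside 59.4% of the tested and 33.9% of all promoters. The ratio was highest at Smad2 (0.97), Smad4 (0.96) and Bmpr1a (0.96), and lowest at Id1 (0.59), the gene with the highest signal.

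Of 63 other genes of the pathway, 30 reached a mean signal of 2 and were tested, and 0 of the 30 were called in either direction. The groups were apart with ApcMin/+ higher at 12 of them (40%, beside 38.5% of all tested promoters), and their median log2 difference was 0.86, beside 0.85, or 0.00 relative to the median promoter of each library. Among 16 ligand genes 6 were tested. Bmp2 had the highest mean signal (4.09 and 2.89 in wild type, 15.5 and 3.52 in ApcMin/+), Bmp3 had the largest log2 difference, 1.07 (0.22 relative to the median promoter), and Bmp4, Bmp5 and Nodal stayed below the filter. Of 10 other receptors 6 were tested, with Bmpr2, a type II receptor for BMPs, the highest (2.92, 2.86, 13.3 and 3.61 in the same order). Acvr1b, a type I receptor for activins, was the most different (1.37, and 0.52 relative to the median promoter).

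Among 11 other Smads and cofactors, Skil, a repressor of Smad complexes, was the highest (6.28, 4.70, 17.0 and 3.71) and Tgif1, a corepressor, had the largest difference, 1.42 (0.57 relative to the median promoter). Smad5, the near relative of Smad1, had 1.74, 1.33, 7.67 and 1.53, and Smad9 stayed below the filter. Of 13 inhibitors and turnover genes Fkbp1a, whose protein holds type I receptors inactive, had both the highest signal (3.49, 3.97, 18.9 and 4.78) and the largest difference, 1.18 (0.33 relative to the median promoter). The secreted antagonists Nog, Chrd and Grem1 stayed below the filter. Among 13 targets, Klf10, an early gene of TGF-β signalling, was the highest (12.3, 4.21, 25.0 and 7.37) and Junb had the largest difference, 1.24 (0.38 relative to the median promoter), while Id2 and Id3 had 5.38 and 7.85 on average and Id4 stayed below the filter. None of these differences passed the threshold, and without ApcMin/+ replicate 1 the median over the 30 was 0.18, beside 0.13 for all tested promoters.

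The 3 promoters of the pathway list most like the mean of the 10 genes, by Euclidean distance over the 4 values of log2(signal + 1), were Id2 (0.304), Smurf2 (0.332), whose protein marks Smads and receptors for degradation, and Bmp2 (0.433).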

How the data were processed

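H3K4me3 was measured by CUT&RUN in 2 wild-type and 2 ApcMin/+ libraries of villus cells, of 34 samples in the series, and the other 30 were not analysed here. Per the study's methods, the authors trimmed read pairs with Novocraft, aligned them to mm10 with Bowtie2, removed duplicates with Picard and reads of low mapping quality with samtools, and kept fragments in the size range set for histone marks. The deposited files give signal, the base-by-base coverage from HOMER for each library, which the authors scaled to 10000000 tags and corrected for fragment length, with no control subtracted and no replicates pooled. Such values need a test on a log scale and no count model. The number of fragments behind a value is its signal summed over the window, divided by what 1 tag adds to the track. Depth limits the precision, most in wild-type replicate 1, with 13.0 fragments at the median tested promoter. The labels name no animal for a replicate, so p-values measure only the spread between these samples, which may be technical.

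Signal was averaged within 1000 bp of the 5′ end of each of 21938 protein-coding genes of GENCODE M21. Promoters with a mean of at least 2 were tested with limma 3.58.1 (trend, R 4.3.3) on log2(signal + 1), two-sided, with Benjamini-Hochberg adjustment over all 9931 and a threshold of 0.05. A log2 difference on this scale understates the change of low promoters. Regions are runs of 100 bp bins whose signal, averaged over the libraries, exceeded the genome mean 5 times, with gaps up to 500 bp closed and a minimum length of 300 bp. On simulated data at these depths the test recovered 90.5% of 200 promoters changed 4-fold among 9931, and 0% when 1 ApcMin/+ library was raised 3-fold, against 97.5% when centred. The simulation gave all promoters the same assumed spread and raised that library equally at each of them. In the data the ratio of ApcMin/+ replicate 1 to replicate 2 ran from 2.52 (Bmpr1a) to 5.22 (Id1) among the 10. These shares are therefore not the power of the test on these data. The 10 genes and all lists were chosen with earlier results of these data known. The genes named are the 10, in each role of the pathway list the gene with the highest mean signal and that with the largest difference, and the 3 most like the 10. Smad5, Smad9, Id3, Axin2, Mki67, Smoc2, Lgr5, Olfm4, Ascl2, Id4, Bmp4, Bmp5, Nodal, Nog, Chrd and Grem1 were named after their values were seen. Promoter sequences and starts are from RefSeq (GRCm38.p6, the assembly of mm10), whose table held 6 of the 10 genes. Figures were drawn with matplotlib 3.10.9 under Python 3.11.15. The alternatives were the scaling, the window, the start of a gene, the filter, the pseudocount (0.1 and 5), blocking on the replicate number and fits with each library left out.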

Additional observations from a re-analysis of the deposited data

How the results depend on the processing

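The count of promoters past the threshold was 0 as reported, 12 when libraries were centred on their median promoters, 2 after quantile normalization, 1 with a replicate block and 15 with a replicate block and centring. The fits that left out 1 library gave 0 to 6477, and the highest count was without ApcMin/+ replicate 2, which leaves ApcMin/+ replicate 1 alone and assumes that it varies like the wild-type libraries. In the same fits 0 to 7 of the 10 genes and 0 to 21 of the 30 pathway genes were called, while every other alternative called 0 of both. The labels do not say that a replicate number pairs libraries, and the deviations of same-numbered libraries correlated at 0.20, so the block shows only how the count moves. The groups of 2 of the 10 genes were apart as reported. With a window of 2000 bp those of 3 were, all with ApcMin/+ higher, beside 40.1% of all promoters. Those of 4 were apart with centring, with quantile normalization, and with the replicate block and centring. After quantile normalization 14.8% of all promoters were apart with ApcMin/+ higher and 16% with ApcMin/+ lower, beside 1 and 3 of the 10. Leaving out a library gave 3 to 10 as deposited, where 38.6% to 98.9% of all promoters were apart with ApcMin/+ higher and 0.181% to 9.12% lower. The 10 of 10 without ApcMin/+ replicate 2 stood beside 98.9%. Without ApcMin/+ replicate 1, 2 were higher and 1 lower, beside 38.6% and 9.12%. With centring, leaving out a library gave 4 to 10, and these shares were 28.8% to 33.6% higher and 30% to 34.8% lower. There the 10 of 10 came without wild-type replicate 2, with 4 higher and 6 lower, beside 33.6% and 34.4%. The median level of the 10, a mean signal of 6.64, was 3.85 without ApcMin/+ replicate 1 and 7.65 without wild-type replicate 2 at the extremes.

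No log2 difference was past the threshold except without ApcMin/+ replicate 2, and signs turned as follows. Smad1 was at 0.23 when scaled to background and 0.18 with a window of 2000 bp. With centring, and alike with the replicate block and centring, Smad2 was at -0.73, Smad3 at -0.042, Smad6 at -0.077, Smad7 at -0.14, Bmpr1a at -0.14 and Tgfbr1 at -0.32, and after quantile normalization at -0.63, -0.024, -0.082, -0.17, -0.074 and -0.22. With 1 library left out, with and without centring, the values ran from -1.15 to 0.51 for Smad1, -0.997 to 0.72 for Smad2, -0.33 to 1.61 for Smad3, -0.068 to 1.63 for Smad4, -0.30 to 1.65 for Smad6, -0.17 to 1.47 for Smad7, -0.61 to 1.21 for Bmpr1a, -0.57 to 1.14 for Tgfbr1, 0.42 to 2.15 for Tgfbr2 and -0.14 to 2.19 for Id1. Tgfbr2 was higher in ApcMin/+ under all these settings. The cause of these changes was not tested. The low depth of wild-type replicate 1 limits Bmpr1a most, at 3 fragments, and then Tgfbr2 and Smad4, at 11.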
